A study of Mus musculus with 5 samples.

Results

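The Hox cluster genes were examined in GFP+ cells that had been sorted from the lungs of FOXJ1-GFP mouse embryos at E17.5. A gene was a member if its symbol is Hoxa, Hoxb, Hoxc or Hoxd followed by a number, and if it has at least 1 probe set that is annotated to no other gene. Of the 39 genes that the RefSeq table lists in the 4 clusters, 33 met this rule, out of 18193 genes measured on the arrays. Hoxb8 and Hoxd4 were measured only by probe sets shared with a neighbouring member, and the remaining 4 were not analysed here. Where a member had several probe sets, the one with the highest mean stands for it.

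The study compared ciliated cells with earlier progenitors to find factors that promote ciliated cell differentiation, and the 5 arrays used here are the biological replicates of the ciliated cells alone. All samples share one genotype and age: embryos from FOXJ1-GFP mice mated to the out-bred ICR strain, with lungs chosen for GFP under a microscope, dissociated with trypsin and EDTA and sorted on GFP. Foxj1 is the transcription factor that drives the programme of motile cilia, so the reporter marks cells that have entered that programme, and the gate used no second marker. The number of lungs behind each replicate and whether replicates came from separate litters are not given in the sources used here, so the p-values cover only the spread among 5 samples, which may be technical. No other group was analysed here, and the data give levels and their spread rather than changes. The values are on a log2 scale, and all errors are SD over 5 arrays.

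Hox genes encode homeodomain transcription factors that give cells their position along the head-to-tail axis of the embryo. They lie in clusters in which the order of the genes follows the order in which they are used: genes with low paralogue numbers act early and towards the head, and genes with high numbers act late and towards the tail. Genes of the same number in different clusters, the paralogues, descend from one ancestral gene and often share functions. In the developing lung, Hox genes of low and middle number are known mainly from the mesenchyme, and Hoxa5 is needed there for normal lung and airway development. Hox proteins bind DNA together with PBX and MEIS proteins, retinoic acid sets the borders of many Hox genes, and Polycomb and Trithorax proteins maintain their silent and active states.

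Reference promoters are shown for Hoxa3, Hoxa5 and Hoxb4, which are among the 5 members with the highest means and have an entry in the RefSeq promoter table of GRCm38.p6. Each runs from 250 bases before to 50 bases after the annotated start. Capitals mark every TAAT, the core that homeodomains bind, and every CCAAT, a common promoter element, on either strand, so a match on the other strand reads ATTA or ATTGG.
Hoxa3 promoter, chr6:52213018-52213317, minus strand: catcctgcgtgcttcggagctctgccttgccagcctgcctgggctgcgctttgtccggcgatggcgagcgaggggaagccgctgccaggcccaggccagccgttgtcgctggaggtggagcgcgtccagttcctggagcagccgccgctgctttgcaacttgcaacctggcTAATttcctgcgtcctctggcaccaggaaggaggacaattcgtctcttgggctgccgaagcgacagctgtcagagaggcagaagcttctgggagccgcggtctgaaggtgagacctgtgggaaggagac
Hoxa5 promoter, chr6:52204538-52204837, minus strand: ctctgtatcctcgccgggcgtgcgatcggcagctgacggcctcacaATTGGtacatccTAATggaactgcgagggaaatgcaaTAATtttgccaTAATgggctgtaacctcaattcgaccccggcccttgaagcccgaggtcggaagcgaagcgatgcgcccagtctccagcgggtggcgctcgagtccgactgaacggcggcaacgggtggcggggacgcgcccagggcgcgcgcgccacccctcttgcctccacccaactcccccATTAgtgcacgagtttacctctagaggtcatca
Hoxb4 promoter, chr11:96318017-96318316, plus strand: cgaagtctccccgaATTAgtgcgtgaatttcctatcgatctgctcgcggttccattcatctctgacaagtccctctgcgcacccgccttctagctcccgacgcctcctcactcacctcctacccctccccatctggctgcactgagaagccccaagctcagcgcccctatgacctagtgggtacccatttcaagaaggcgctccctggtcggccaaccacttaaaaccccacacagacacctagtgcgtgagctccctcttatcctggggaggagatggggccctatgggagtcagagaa
The Hoxa3 window overlaps the antisense gene Hoxaas3, the Hoxa5 window lies inside the span of both Hoxa3 and Hoxaas3, and the Hoxb4 window lies inside the span of Hoxb3. The Hoxa3 window holds 1 TAAT and 20 CpG, the Hoxa5 window 4 TAAT, 1 CCAAT and 29 CpG, and the Hoxb4 window 1 TAAT and 14 CpG. Over all 32851 promoters of the table the median was 7 CpG, and over the 21 promoters of 19 members it was 15. TAAT was found in 58.0% of all promoters and in 17 of the 21, and CCAAT in 37.4% of all and in 12 of the 21. TGATTNAT, a joint site for PBX and HOX proteins, was found in 3.22% of all promoters and in 2 of the 21, those of Hoxa2 and Hoxd11. The retinoic acid response elements DR5 and DR2 were searched only as exact direct repeats of AGGTCA spaced by 5 or 2 bases. Each was found in 3 promoters of the table (0.00913%) and in 0 of the 21. With matches this rare over all promoters, 0 of the 21 says nothing about these members. Both strands were searched, a TAAT may lie within a TGATTNAT, and a match describes letters and not binding.

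The Hox genes at or near the background level came from paralogue groups 3 to 5 of the Hoxa and Hoxb clusters. Hoxa5, Hoxb3 and Hoxb5 were above it, Hoxa3 and Hoxb4 lay within 0.5 of it, and the 28 remaining members had margins of -1.36 or lower. That level, 8.12, is the 95th percentile over 148 genes of other tissues and of smell receptors, which ciliated cells of the lung are not known to use, and a gene was called above it at an adjusted p under 0.05 in a one-sided limma test. The 3 members called are 9.09% of 33, whereas 56.7% of all genes were called. Of the 78 tissue-restricted genes among the background genes, 7 were also called (8.97%), with means from 8.69 (Fabp2) to 10.61 (Ttr). Whether other cells in the sorts express these 7 was not tested. Probe sets differ in how brightly they report the same amount of RNA, so the order of the members' values is not an order of their transcripts, and a member that was not called may still be expressed. The background level is a high one: Nkx2-1, a transcription factor of the lung epithelium, had a mean of 8.22 ± 0.34 and was not called.

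**Figure D1:**
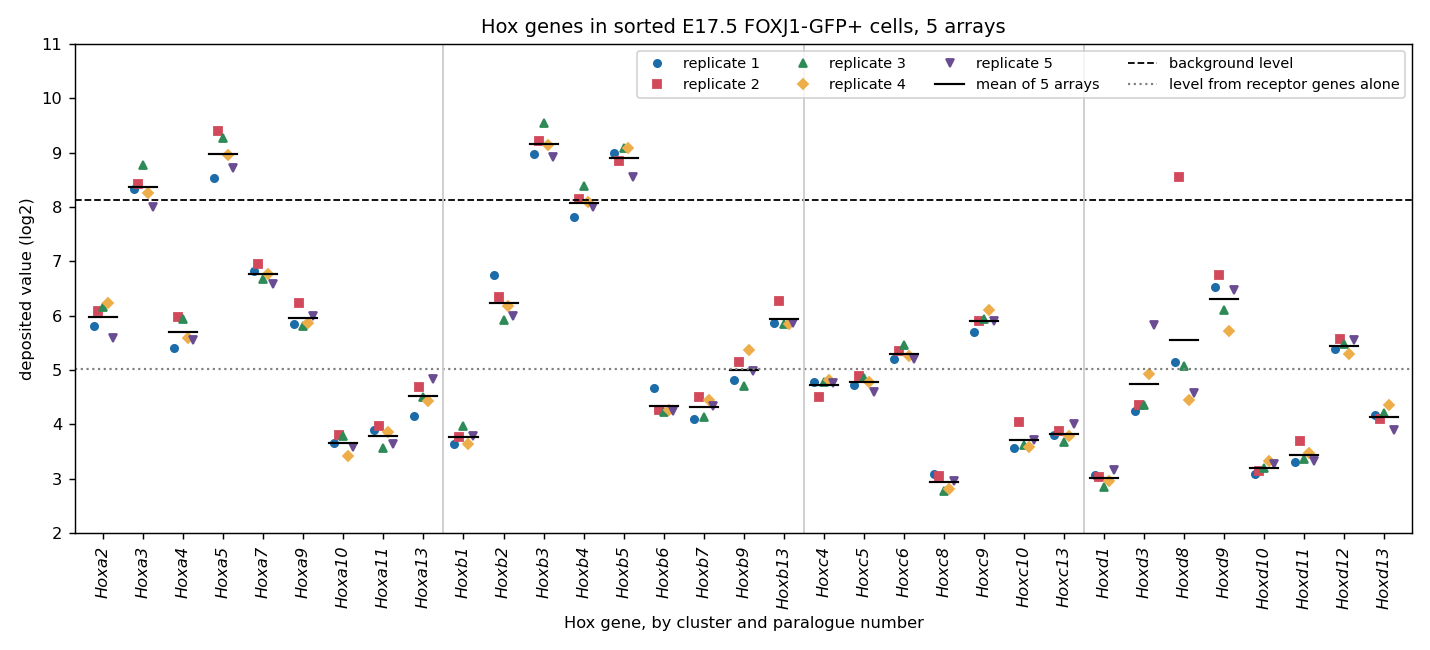
Deposited value (log2, vertical axis) of each of the 33 Hox genes (horizontal axis, by cluster and paralogue number) on each of the 5 arrays; each symbol is 1 replicate, the bar is the mean, the dashed line is the background level of 8.12 and the dotted line the level of 5.02 from receptor genes alone. Hoxa3, Hoxa5, Hoxb3, Hoxb4 and Hoxb5 lie near or above the dashed line, and replicate 2 of Hoxd8 stands at 8.55, far above its other arrays.

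Hoxb3, a regulator of pharyngeal and hindbrain patterning, had values of 8.98, 9.22, 9.55, 9.14 and 8.92 in replicates 1 to 5. All 5 arrays lay above the background level, with replicate 3 the highest and replicate 5 the lowest. The mean of 9.16 ± 0.25 lay 1.04 over the background level (adjusted p = 2.01e-05, limma).

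Hoxa5, which acts in lung mesenchyme during airway branching and alveolar development, had values of 8.53, 9.40, 9.27, 8.96 and 8.72. Every array was above the background level, and replicates 2 and 3 were the highest. The mean was 8.98 ± 0.37, which is 0.86 over the background level (adjusted p = 0.000455, limma).

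Hoxb5, its paralogue in the Hoxb cluster, also known from the lung mesenchyme, had values of 8.99, 8.84, 9.09, 9.08 and 8.55. Replicates 1, 3 and 4 lay close together and replicate 5 was the lowest, still above the background level. The mean was 8.91 ± 0.23, or 0.79 over the background level (adjusted p = 7.97e-05, limma).

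Hoxa3, needed for the thymus, the parathyroid and other pharyngeal organs, had values of 8.33, 8.43, 8.77, 8.25 and 8.0. It was above the background level on 4 arrays and below it in replicate 5. Its mean of 8.36 ± 0.28 missed the threshold (0.24 over the level, adjusted p = 0.0818, limma). Without replicate 5 it passed (0.28 over that setting's level, adjusted p = 0.0489, limma), and without replicate 3 it lay 0.01 over (adjusted p = 1.0).

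Hoxb4, which promotes the expansion of blood stem cells when expressed at high level, had values of 7.81, 8.14, 8.39, 8.09 and 8.0. Its arrays fell on both sides of the background level, 2 above and 3 below, and its mean was 8.08 ± 0.21 (-0.03 from the level). Against a level of 7.32, taken from the 126 background genes whose probe sets carry no suffix for shared or mixed targets and chosen after the data were seen, all of Hoxa3, Hoxa5, Hoxb3, Hoxb4 and Hoxb5 were called and no other member was. At that level 63.1% of all genes were called. The probe set that stands for Hoxa3 itself carries such a suffix, so for this gene the comparison is not like for like. With such probe sets left out of the members too, Hoxa3 lay 0.87 over that setting's level of 7.25 (adjusted p = 7.08e-05, limma).

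**Figure D2:**
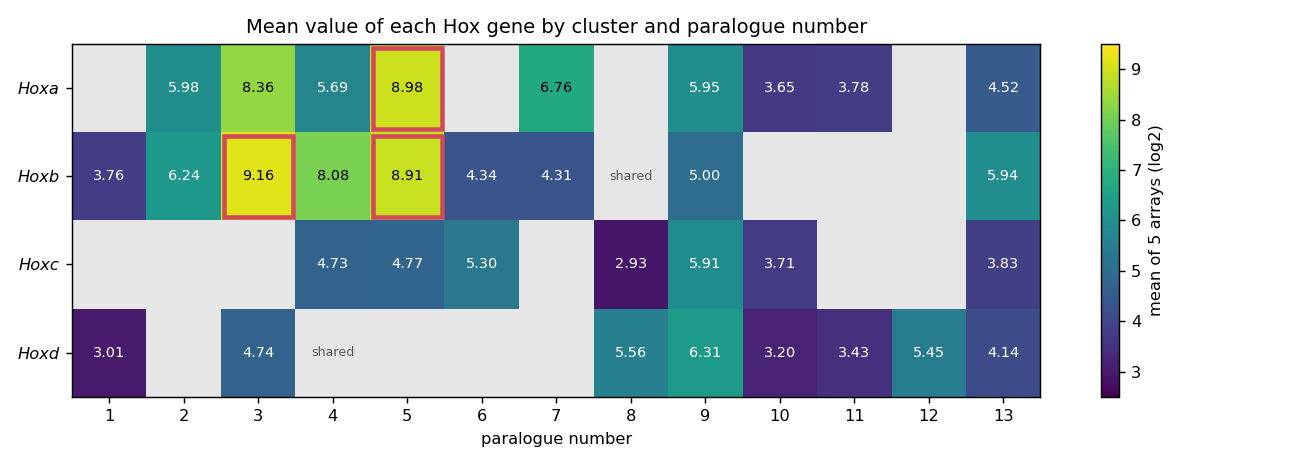
Mean over 5 arrays (log2, colour and number) of each Hox gene, with clusters as rows and paralogue numbers as columns; red frames mark the 3 genes above the background level, "shared" marks genes measured only with a neighbour, and empty grey cells hold no value here. The 5 values near or above 8.12 sit in paralogue groups 3 to 5 of Hoxa and Hoxb, and the highest value of Hoxc and Hoxd is 6.31.

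In the Hoxa cluster on chromosome 6, 9 genes were measured with a median level of 5.95. Hoxa2, a regulator of hindbrain and face patterning, had values of 5.81, 6.09, 6.15, 6.24 and 5.59. Hoxa4, which lies between Hoxa3 and Hoxa5, had values of 5.40, 5.98, 5.93, 5.58 and 5.56, all below the background level. Hoxa7, at 6.76 ± 0.14, had the margin nearest to the level among the 28 (-1.36). Hoxa10, Hoxa11 and Hoxa13, which pattern the limbs, the reproductive tract and other posterior structures, had means of 3.65, 3.78 and 4.52.

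In the Hoxb cluster on chromosome 11, 9 genes were measured, with a median of 5.94. Hoxb1, a hindbrain gene, had values of 3.64, 3.77, 3.96, 3.64 and 3.79, all below the level of 5.02 from receptor genes. Hoxb2 had a mean of 6.24 ± 0.33, and the next genes along the chromosome, Hoxb3, Hoxb4 and Hoxb5, are those at or near the background level. Beyond Hoxb5 no gene of the cluster was near it: Hoxb6 had a mean of 4.34 ± 0.19 and Hoxb7 of 4.31 ± 0.18. Hoxb9 was at 5.00 ± 0.26 and Hoxb13, a gene of the tail end and prostate, at 5.94 ± 0.19.

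None of the 15 genes measured in the Hoxc and Hoxd clusters was called, beside 56.7% of all genes, and their means ran from 2.93 to 6.31. Hoxc4, the first gene of its cluster, had values of 4.78, 4.50, 4.78, 4.82 and 4.76, and Hoxd1, the first of the other, had values of 3.06, 3.03, 2.84, 2.95 and 3.16. The members of these clusters that belong to paralogue groups 3 to 5, Hoxc4, Hoxc5 and Hoxd3, had means from 4.73 to 4.77. Hoxc5 was measured by 3 probe sets, at 4.77, 4.50 and 3.09. The probe sets that match both Hoxd3 and Hoxd4 had means of 3.51 and 4.50, and the one that matches both Hoxb7 and Hoxb8 had a mean of 3.72.

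By position in the cluster, 1 of 7 measured genes of paralogue groups 1 to 3 was above the background level. For groups 4 to 8 it was 2 of 12, and for groups 9 to 13 it was 0 of 14, beside 56.7% of all genes. With 3 members called in all, no difference between these groups was tested. None of these 14 posterior genes passed at an unadjusted p under 0.05 either, since their highest mean was 6.31 (Hoxd9). The posterior members had a median of 4.33, from 3.20 for Hoxd10 to 6.31 for Hoxd9. Within this set, the 4 genes of group 9 had means of 5.00 to 6.31 and the 3 of group 10 had means of 3.20 to 3.71.

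The choice of background genes set how many members were called. The test takes the level as a fixed number, so its p-values leave out the uncertainty of that choice. The 70 olfactory and vomeronasal receptor genes had a median of 3.57, and the 78 tissue-restricted genes, from liver, retina, muscle, brain and other organs, had a median of 5.25. With the receptor genes alone the level was 5.02, and 15 of 33 members were called (45.5%), against 81.2% of all genes. The same 15 members were above 5, which 81.3% of all genes passed. The study set a cut-off of that size, in arbitrary units, on average expression in its comparison with earlier progenitors, whereas here it was set against the log2 mean of the ciliated arrays alone. These 15 hold 5 posterior genes, Hoxa9, Hoxb13, Hoxc9, Hoxd9 and Hoxd12, and the other 18 members were not called at either level. At a cut-off of 6, 6 of 33 members passed, against 72.7% of all genes. Of the 78 tissue-restricted genes, 40 were also above 5.02, so the values of members in this range overlap those of genes of other tissues. At every level used, the share of Hox genes called was below the share of all genes. With the tissue-restricted genes alone, at 9.03 (47.7% of all genes called), and with the 99th percentile, at 10.29 (31.2%), limma called 0 members, and 0 had an unadjusted p under 0.05.

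**Figure D3:**
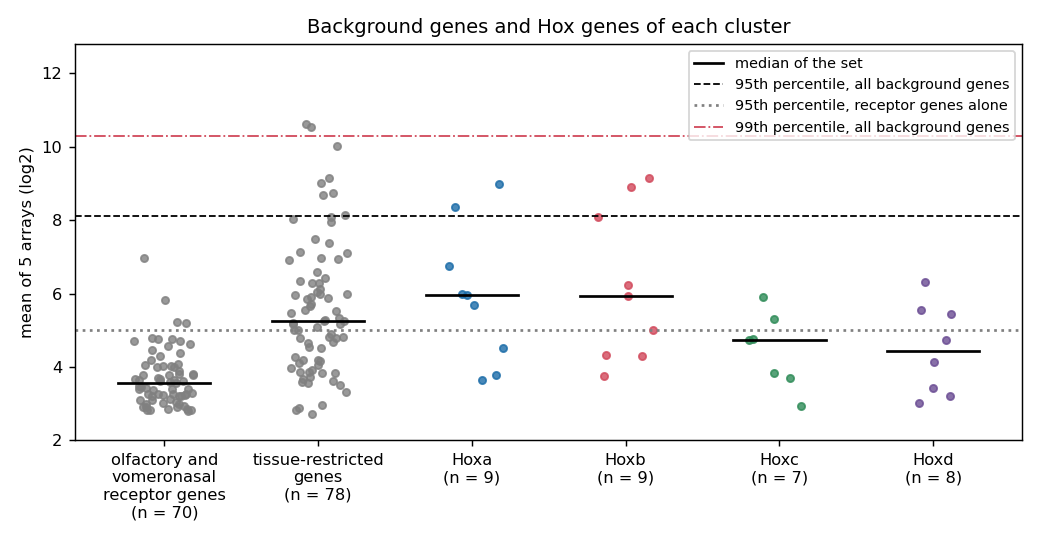
Mean over 5 arrays (log2, vertical axis) of the 70 receptor genes, the 78 tissue-restricted genes and the Hox genes of each cluster; each point is 1 gene, bars are medians, and lines show the levels of 8.12, 5.02 and 10.29. Most members of Hoxc and Hoxd overlap both sets of background genes, with medians of 4.73 and 4.44. The tissue-restricted genes reach 10.61, above the highest Hox mean of 9.16 (Hoxb3).

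Several members were measured by more than 1 probe set of their own, and for some of the 5 at or near the level these disagreed. The 33 members had 48 such probe sets, and 11 members had more than 1. Hoxa5 had a second probe set with values of 7.73, 8.36, 8.66, 8.28 and 7.65, a mean of 8.14 ± 0.43, and this probe set was not called. Hoxa3 had 4 probe sets with means of 8.36, 8.12, 5.34 and 4.56. The 2 bright ones are annotated to the same sequence record, and the second had values of 8.13, 8.28, 8.45, 7.98 and 7.77, highest and lowest in the same replicates as the first. Hoxb3 had a second probe set at 6.31 ± 0.16 (2.85 below the first), which was not called either. Hoxb4 had a second at 4.83 ± 0.11 (3.25 below the first). Hoxb5 had 1 probe set only.

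When the probe sets of each gene were averaged, 2 members were called, Hoxa5 and Hoxb5, against that setting's level of 8.0 (45.7% of all genes called). Hoxb3 then lay at -0.26 and Hoxa3 at -1.40 from the level. In the RefSeq table the span of Hoxa3 overlaps Hoxa4, Hoxa5 and Hoxa6, and that of Hoxb3 overlaps Hoxb4. Transcripts of overlapping members may therefore share sequence, and which transcript each probe set reports was not tested. Hoxb5os, an antisense gene whose span covers Hoxb5 and Hoxb6, is not a member, and it had values of 7.03, 7.41, 6.85, 6.99 and 6.61 (6.98 ± 0.29, not called).

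**Figure D4:**
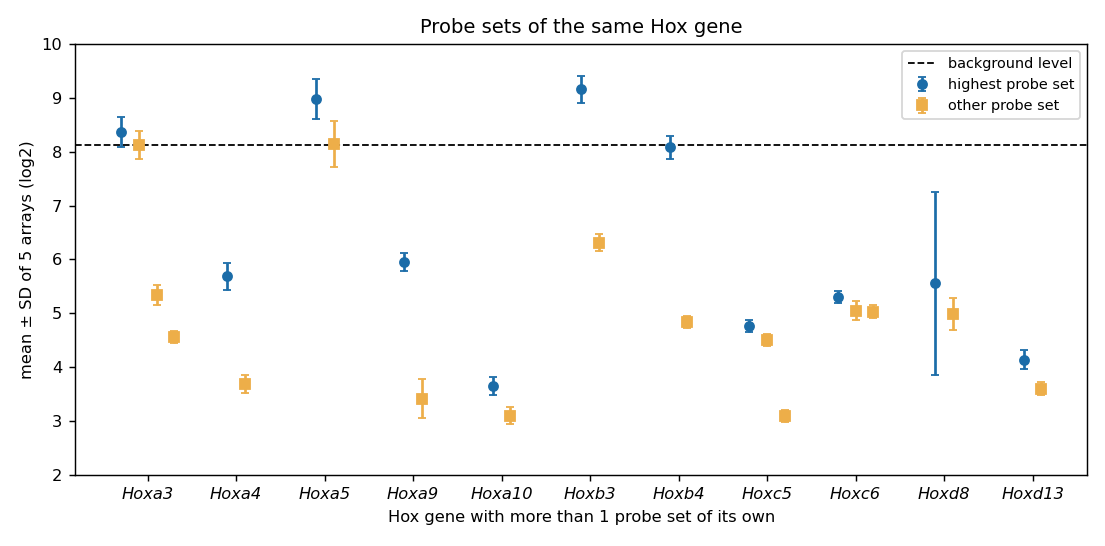
Mean ± SD over 5 arrays (log2, vertical axis) of every probe set of the 11 Hox genes with more than 1 (horizontal axis); circles are the highest probe set of a gene, squares the others, and the dashed line is the background level of 8.12. The probe sets of Hoxa5 differ by 0.84, whereas those of Hoxb4 differ by 3.25.

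Between the replicate sorts most members varied little. The median SD of the 33 members was 0.18, beside 0.17 over all genes and 0.21 over the 1643 genes whose mean lay within 0.5 of the members' median. Of the 28 members outside these 5, 24 had an SD under 0.3, and the remaining 4 were Hoxb2, Hoxd3, Hoxd8 and Hoxd9. The values of Hoxd8 were 5.15, 8.55, 5.08, 4.44 and 4.57, an SD of 1.70, with replicate 2 alone far above the others. The second probe set of Hoxd8 gave 5.00, 5.30, 5.13, 4.51 and 5.00, so that replicate 2 was again the highest but by a small margin. Hoxd3, at 4.24, 4.35, 4.35, 4.92 and 5.83, was highest in replicate 5, and Hoxd9, at 6.52, 6.74, 6.11, 5.71 and 6.48, was lowest in replicate 4.

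Among the 5 members at or near the level, replicate 3 held the highest value of 4 and the second highest of Hoxa5. Replicate 5 held the lowest value of Hoxa3, Hoxb3 and Hoxb5, and replicate 1 that of Hoxa5 and Hoxb4. The mean deviation of the 5 genes from their own means was -0.17, 0.11, 0.32, 0.01 and -0.26 in replicates 1 to 5, a range of 0.58. The other 28 members together ranged over 0.28, with replicate 2 the highest at 0.21, and over 0.16 without Hoxd8. Replicate 2 held the highest value of 42.4% of all 33 members, beside 29.1% of genes of like level.

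Markers of other cell types moved over the same arrays. Of the markers of the labelled cell type, 19 of 20 were above background, with Foxj1 at 12.82 ± 0.08, Dnah9, a heavy chain of ciliary dynein, at 12.71 ± 0.11, and only Spag6 not called at 3.67 ± 0.13. Their mean level ranged from 12.57 to 12.61 over the arrays. Of 30 mesenchymal markers 19 were above background (63.3%, beside 56.7% of all genes). Among them were Col1a1 and Col3a1, chains of fibrillar collagen, at 12.39 ± 0.13 and 12.42 ± 0.26, and the transcription factors Tcf21 at 11.13 ± 0.27, Foxf1 at 12.21 ± 0.29, Tbx4 at 9.40 ± 0.46 and Tbx5 at 8.51 ± 0.28. The mesenchymal markers not called include Twist1 at 6.66 ± 0.33, Lum at 4.91 ± 1.10 and Fgf10 at 4.94 ± 0.22. The mean level of the mesenchymal list ranged from 9.16 in replicate 1 to 9.60 in replicate 3.

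Endothelial markers were called in a larger share than mesenchymal ones, at 17 of 18 (94.4%, beside 56.7% of all genes). The median level of the 18 was 10.69. The called mesenchymal markers deviated by -0.30, 0.10, 0.37, -0.05 and -0.13 in replicates 1 to 5. The 17 called endothelial markers deviated by -0.53, 0.17, 0.41, 0.09 and -0.15. The called genes of both lists were thus highest in replicate 3 on average, as were 4 of the 5 Hox genes, and lowest in replicate 1. Hoxa3, Hoxb3 and Hoxb5 were lowest in replicate 5 instead. Some mesenchymal markers that were not called went the other way. Dcn and Lum were lowest in replicate 3 (7.48 and 3.87) and highest in replicate 5 (9.06 and 6.76). Over all 30 mesenchymal markers the mean level was still highest in replicate 3, at 9.6. The 13 called white blood cell markers (of 22) were highest in replicate 5 at 0.37, and the 5 called mesothelial markers (of 10) were lowest in replicate 3 at -0.38. The 19 called ciliated cell markers ranged over 0.05 and the 18 called epithelial markers (of 20) over 0.21. Of 14 neural markers, 2 were called, Ret and Stmn2, while Phox2a and Sox10, which define autonomic neurons and glia, were at 5.00 ± 0.46 and 6.05 ± 0.22. The part of other cells in the Hox values was not tested, and with 5 arrays no correlation was computed. In sorted cell mixtures, fewer cells of a type and less RNA per cell cannot be told apart.

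**Figure D5:**
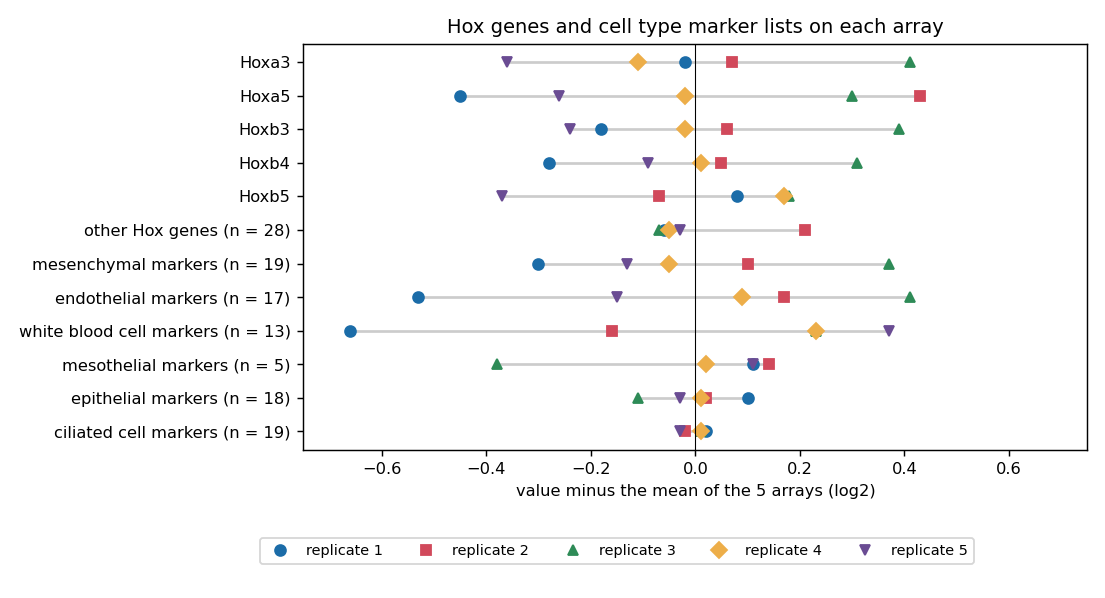
Deviation from the mean of the 5 arrays (log2, horizontal axis) of the 5 highest Hox genes, of the mean of the other 28 and of the mean of the called genes of each marker list (vertical axis, number of genes in brackets); each symbol is 1 replicate. Replicate 3 is the highest for Hoxa3, Hoxb3, Hoxb4, Hoxb5 and the mesenchymal and endothelial lists, whereas the ciliated list spans 0.05.

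Of 10 TALE homeodomain genes measured, which include the partners of Hox proteins, 7 were called (70.0%, beside 56.7% of all genes): Pbx2 at 11.26 ± 0.08, Pbx3 at 11.54 ± 0.03, Pbx4 at 12.05 ± 0.19, Meis2 at 11.19 ± 0.21, Pknox1 at 9.86 ± 0.37, and Tgif1 and Tgif2, repressors of the same class, at 11.59 ± 0.30 and 10.24 ± 0.16. Meis1 at 7.62 ± 0.43, Meis3 at 7.33 ± 0.20 and Pknox2 at 7.39 ± 0.43 were not called.

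Of 18 genes of retinoic acid signalling measured, 10 were called (55.6%, beside 56.7% of all genes). The receptors Rara at 8.57 ± 0.21, Rarb at 9.11 ± 0.29, Rarg at 9.27 ± 0.28, Rxra at 11.59 ± 0.07 and Rxrb at 11.36 ± 0.11 were called, and Rxrg at 4.80 ± 0.21 was not. Among the enzymes that make retinoic acid, Aldh1a1 was called at 12.96 ± 0.06, while Aldh1a2, the main one of embryonic mesenchyme and mesothelium, was at 7.05 ± 0.45 and Aldh1a3 at 6.26 ± 0.31. The degrading enzymes Cyp26a1 at 5.42 ± 0.70 and Cyp26b1 at 7.67 ± 0.61 were not called.

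Of 29 Polycomb genes measured, 26 were called (89.7%, beside 56.7% of all genes). The core of the complex that methylates histone H3 at lysine 27 was among them, with Ezh2 at 11.33 ± 0.16, Eed at 11.68 ± 0.07 and Suz12 at 11.96 ± 0.09, and so were Ring1 at 10.48 ± 0.18, Rnf2 at 11.61 ± 0.14 and Bmi1 at 11.30 ± 0.06 of the other Polycomb complex. Phf1 at 7.36 ± 0.13, Phf19 at 6.17 ± 0.21 and Cbx7 at 7.71 ± 0.23 were not called. All 18 measured genes of the Trithorax group and of the lysine 27 demethylases were called, including Kmt2a, a classical activator of Hox genes, at 11.47 ± 0.11, its partner Men1 at 8.74 ± 0.23 and the demethylase Kdm6b at 13.53 ± 0.11. These 2 lists varied little over the arrays, with mean deviations that ranged over 0.05 and 0.06.

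Few of the homeobox genes related to the Hox clusters were called. Of 21 genes of the CDX, ParaHox and other related families, 3 were called (14.3%, beside 56.7% of all genes): Meox1 at 9.64 ± 0.24, Dlx3 at 8.44 ± 0.31 and Dlx4 at 9.97 ± 0.28. Cdx1, Cdx2 and Cdx4, which activate posterior Hox genes, were at 4.62 ± 0.12, 5.09 ± 0.08 and 2.92 ± 0.18. Meox2, a gene of mesenchyme and muscle precursors, was at 8.31 ± 0.19 and was not called. Their median level was 4.62, beside 5.00 for the 33 Hox genes.

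At the edges of the clusters, neighbouring genes lay on both sides of the background level. Of the 8 measured protein-coding genes nearest to the clusters on either side, 5 were called, a share near the 56.7% of all genes. Skap2, beside the Hoxa cluster, was at 10.38 ± 0.19, and Ttll6, a tubulin-modifying enzyme next to Hoxb13, was at 11.65 ± 0.44, while Hoxb13 itself was not called. Calcoco1 and Smug1 on the 2 sides of Hoxc were at 11.45 ± 0.10 and 9.79 ± 0.24, and Mtx2 beside Hoxd1 was at 10.74 ± 0.09. Evx1 at 4.13 ± 0.16 and Evx2 at 5.10 ± 0.13, homeobox genes at the posterior ends of Hoxa and Hoxd, and Skap1 at 6.21 ± 0.33 were not called. Of 19 genes measured on the wider list of flanking genes, 16 were called (84.2%, beside 56.7% of all genes).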

How the data were processed

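RNA of 5 biological replicates of E17.5 FOXJ1-GFP+ lung cells was amplified, labelled with biotin and hybridised to Affymetrix mouse expression arrays, 1 per replicate, and analysed by the authors with Bioconductor in R. The authors deposited log2 values, normalized before deposit. The summary and normalization steps are not stated in the sources at hand. The scale was read from the values (2.37 to 15.24, array medians 7.18 to 7.26). Pearson's r between arrays, across probe sets, was 0.987 to 0.994, and no 2 arrays held identical values. Of the 45037 probe sets left after 64 controls were removed, 34945 carry 1 gene, 932 several and 9160 none here; 99.4% of the first have an identifier in the RefSeq table of GRCm38.p6, and 0 symbols changed.

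The deposited values were used unchanged. The mean of every probe set was estimated in limma 3.58.1 (R 4.3.3; lmFit, then eBayes), and the moderated one-sided test against a level was adjusted by Benjamini-Hochberg over all 45037 probe sets. Calls need an adjusted p under 0.05. The fit was tested on simulated data. Background genes were the olfactory and vomeronasal receptor genes and a list of tissue-restricted genes, of which 7 were themselves above the level. Other steps used Python 3.11.15. The members and gene lists were chosen with earlier results of these data known. Values on all arrays are given for members called or within 0.5 of the level and for the first of each cluster; Hoxa4, Hoxd3, Hoxd8, Hoxd9, Hoxb5os and the nearest neighbours were added after their values were seen. Of other lists the count and a selection of members are named, and this selection does not always follow the order of the list. The number of arrays limits the precision.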

Additional observations from a re-analysis of the deposited data

Results flagged for a closer look

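In 4 of 33 members, 1 array stood far from the other 4 (gap to the nearest value over 0.71 of the whole range); chance flags about 1 in 20 groups. These are Hoxd8 in replicate 2 at 8.55, Hoxb13 in replicate 2 at 6.27, Hoxb6 in replicate 1 at 4.67 and Hoxc4 in replicate 2, a low value of 4.50. The gap was 0.828, 0.946, 0.912 and 0.809 of the range, and the ranges were 4.11 for Hoxd8, 0.43 for Hoxb13, 0.44 for Hoxb6 and 0.32 for Hoxc4. Only for Hoxd8 did the array cross the background level. Hoxa3, Hoxa5, Hoxb3, Hoxb4 and Hoxb5 were not among them.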

How the results depend on the processing

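The 3 members called, Hoxa5, Hoxb3 and Hoxb5, were the same after quantile normalization, after median centring and where a call required all 5 arrays above the level. The values were normalized before deposit, with array medians of 7.18 to 7.26, so the first 2 settings could change little. The arrays of these 3 members all lay above the level already, so the last setting could not remove them. Leaving out 1 replicate at a time gave 3 to 4 members, always with these 3. Averaging probe sets gave 2. Without probe sets of shared or mixed targets, which leaves out Hoxb6, 5 of 32 were called (59.7% of all genes), as with plain probe sets as background (5, an alternative chosen after the data were seen), and both sets are Hoxa3, Hoxa5, Hoxb3, Hoxb4 and Hoxb5. The receptor genes alone gave 15, the tissue-restricted genes alone 0 and the 99th percentile 0. The count above 5 was 15, and 6 with a cut-off of 6. These counts follow the level by construction. The median SD of the members lay between 0.16 and 0.20 under the alternatives run for it. With averaged probe sets Hoxa3 lay at -1.40 and Hoxb3 at -0.26 from the level. With the 99th percentile Hoxa3 lay at -1.93, Hoxa5 at -1.31, Hoxb3 at -1.13 and Hoxb5 at -1.37. With the tissue-restricted genes alone Hoxa3 lay at -0.67, Hoxa5 at -0.05 and Hoxb5 at -0.12. Hoxb4 lay over the level by 0.83 without shared probe sets, by 0.77 with plain background probe sets, and ran from -0.24 to 0.06 with 1 replicate left out (at or above the level without replicate 1, 2 or 4). With the receptor genes alone members turned from below to above the level: Hoxb4 by 3.07, Hoxa7 by 1.74, Hoxd9 by 1.30, Hoxb2 by 1.22, Hoxa2 by 0.96, Hoxa9 by 0.94, Hoxb13 by 0.92, Hoxc9 by 0.89, Hoxa4 by 0.67, Hoxd8 by 0.54, Hoxd12 by 0.44 and Hoxc6 by 0.28. Of these, Hoxd8, whose replicate 2 stood at 8.55, was not called at that level (adjusted p = 0.253, limma). No paired analysis was possible because there is 1 group of samples.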

Other observations

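Also examined beside the Hox genes was a list of 14 genes drawn up as genetic targets of the Hox5 paralogues in lung. It holds genes of Wnt and Bmp signalling, elastic fibres, the matrix and surfactant, and also Fgf18, Foxa2 and Retnla. Whether Hox genes act on them in these cells was not tested. Of the 14 genes, 11 were above background (78.6%, beside 56.7% of all genes). Among them were Bmp4 at 9.74 ± 0.17, Axin2, a Wnt target, at 9.38 ± 0.16, Lef1 at 8.68 ± 0.27 and Eln, which encodes elastin, at 12.57 ± 0.26. The surfactant genes Sftpc, Sftpb and Sftpa1, which alveolar type 2 cells express, were at 14.06 ± 0.27, 11.14 ± 0.58 and 12.14 ± 0.80. All 3 were lowest in replicate 1 and highest in replicate 5, and Sftpa1 ran from 10.99 to 13.22 between them. Their part in the Hox values was not tested. The Wnt ligand genes Wnt2 and Wnt2b were not, at 6.58 ± 0.29 and 4.53 ± 0.04, and neither was Fgf18 at 7.43 ± 0.22. Further antisense genes of the clusters had low values: Hoxd3os1 at 3.85 ± 0.16 and Hoxa11os at 3.70 ± 0.26.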
